A study of Mus musculus with 16 samples.

Results

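The respiratory chain is built from subunits that are encoded in 2 genomes, and the genes of these subunits were followed across 4 groups of mouse brains. Protein-coding genes were taken by symbol: those starting with Nduf, Sdha to Sdhd, Uqcr, Cox4 to Cox8, Cyc1 and Atp5, and the 13 protein genes of the mitochondrial chromosome. Assembly factors (Ndufaf, Sdhaf, Uqcc) were left out. Of the 49671 genes in the files, 99 had such names and 94 had a mean of at least 1 CPM (reads of a gene scaled to the size of the library) over the 16 libraries. Of these 94 members, 83 are nuclear (38 of complex I, 4 of complex II, 9 of complex III, 15 of complex IV and 17 of complex V) and 11 are mitochondrial (6 of complex I, 1 of complex III, 3 of complex IV and 1 of complex V). All 94 passed the filter on low counts and entered the tests. Just inside the limit were Cox4i2 at 1.44 CPM and Cox7a1 at 1.58 CPM. Just outside were Cox8b at 0.463 CPM, mt-Nd4l at 0.270 CPM and Cox7b2 at 0.218 CPM, and mt-Atp8 and Cox8c had 5 reads and 1 read over all libraries.

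RNA was taken from whole brains of C57BL/6 mice, with 1 mouse per library and 4 mice per group. Dams received lipopolysaccharide (LPS, a bacterial endotoxin) or saline into the peritoneum on gestation day 16. The male offspring received LPS or saline on postnatal day 30, and their brains were collected on postnatal day 32. The groups are called LPS-LPS, LPS-saline, saline-LPS and saline-saline, read here with the dam's injection first. All 4 groups were injected at both ages. The order of the words is not spelled out, so that prenatal and pubertal would swap if it were the reverse. No litter is named, so some mice of a group may be siblings, and p-values cover only the spread among the sampled mice.

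Complexes I and II take electrons from NADH and succinate, and complexes III and IV pass them on to oxygen. Complexes I, III and IV pump protons across the inner mitochondrial membrane, and complex V uses the resulting gradient to make ATP. Complexes I, III, IV and V are assembled from nuclear and mitochondrial products, while complex II is built from nuclear products alone. Neurons depend heavily on this pathway to power ion pumps and synaptic transmission.

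Library totals ran from 25729919 to 38571036 counts, so that 1 read was worth 0.0259 to 0.0389 CPM. Several libraries stood apart. The offspring were described as male, but the library labelled LPS-LPS replicate 3 had Xist at 503 CPM and no read of Ddx3y, a gene of the Y chromosome (0 CPM). In LPS-LPS replicate 1 the summed level of 5 pituitary genes reached 811 CPM and in saline-LPS replicate 1 60.3 CPM, against at most 6.37 CPM in the groups with pubertal saline. Gabra6, a gene of cerebellar granule cells, was between 2.47 and 71.3 CPM in 8 libraries and below 1 CPM in the other 8. Saline-saline replicates 1 to 3, LPS-saline replicates 1 and 2, saline-LPS replicates 1 and 2 and LPS-LPS replicate 2 were below this limit.

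Per kilobase of exon, single nuclear members ran from 1.68 to 737 CPM, and complexes III and IV had the higher medians. The median level per kilobase was 57.1 CPM for nuclear complex I, 50.4 CPM for complex II, 82.1 CPM for complex III, 88.7 CPM for complex IV and 51.3 CPM for complex V. Cox6a1, the widely expressed isoform of a small complex IV subunit, had the highest nuclear level at 737 CPM per kilobase, followed by Cox8a at 542. In complex V the catalytic head subunits Atp5a1 and Atp5b stood at 299.5 and 295 CPM per kilobase. In complex I the highest was Ndufa4 at 137 CPM per kilobase, a subunit named for complex I that is now placed with complex IV. Complex III was led by Uqcr11 at 179.8 CPM per kilobase and complex II by the flavoprotein Sdha at 100.4. The mitochondrial genes mt-Co1, mt-Cytb and mt-Nd1 were far above these, at 7961, 4426 and 4124 CPM per kilobase.

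The 13 mitochondrial protein genes split into some of the most abundant genes of the brain and others near 0, although several are cut from the same precursor RNA. The core subunits mt-Co1 (complex IV), mt-Cytb (complex III), mt-Nd1, mt-Nd4, mt-Nd2 and mt-Nd5 (complex I) had mean levels of 12299.8, 5063, 3947, 2436, 2388 and 1863 CPM. By contrast, mt-Co2 had 14.2 CPM, mt-Co3 11.1, mt-Atp6 7.41, mt-Nd3 2.25 and mt-Nd4l 0.270. The sequence of these 5 low genes is repeated in the nuclear genome. When each gene was split into overlapping words of 50 bases, between 98.0 and 100% of the words of each were also found in an annotated transcript of another gene, against 0% for mt-Nd1, mt-Nd6 and mt-Cytb. The share was 62.2% for mt-Nd4, 51.1% for mt-Co1, 8.19% for mt-Nd2 and 7.61% for mt-Nd5. Reads with several best alignments (3.18 to 3.90% per library) were counted apart from genes. The level of a gene with such a copy is therefore the level of its uniquely placed reads. One low gene, mt-Atp8, had 0% words shared with an annotated transcript and a level of 0.00955 CPM. It lies between mt-Co2 and mt-Atp6 and overlaps mt-Atp6 on the same strand. The copies of these neighbours lie side by side on chromosome 1 (24614885-24615565 and 24613974-24614651). The unannotated stretch between them was not compared, so a copy of mt-Atp8 there was not looked for.

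**Figure D1:**
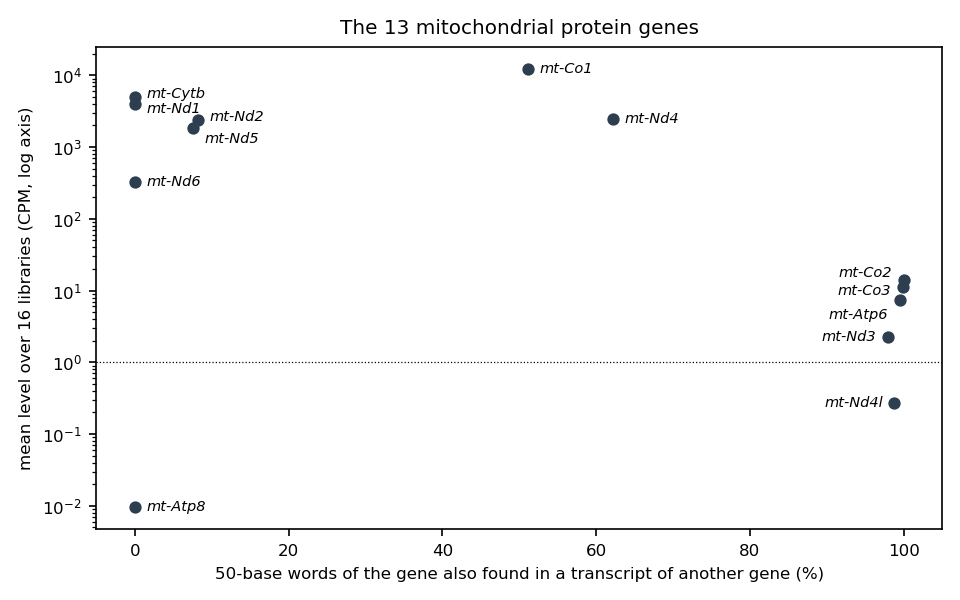
Mean level over the 16 libraries (CPM, log axis) of each of the 13 mitochondrial protein genes against the share of its 50-base words found in an annotated transcript of another gene (%). The dotted line marks 1 CPM. The 5 genes with 98.0% or more shared words lie below 15 CPM, while all but mt-Atp8 of the 8 others lie above 300 CPM.

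The stretch below, chosen because it shows an exact nuclear copy, compares 60 bases of mt-Co2 (chrM:7313-7372, plus strand) with the chromosome 1 pseudogene Gm28661 (chr1:24615206-24615265, minus strand) in GRCm38, and 0 bases differ. The second pair sets mt-Nd5 (chrM:12502-12561, plus strand) beside Gm4076 (chr13:85127400-85127459, minus strand), a diverged copy in which 5 of 60 bases differ, and capitals mark these.
mt-Co2: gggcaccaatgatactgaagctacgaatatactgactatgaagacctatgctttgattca
Gm28661: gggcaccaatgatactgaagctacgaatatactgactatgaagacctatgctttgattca
mt-Nd5: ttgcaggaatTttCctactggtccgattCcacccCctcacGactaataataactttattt
Gm4076: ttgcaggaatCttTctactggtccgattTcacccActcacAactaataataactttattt

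Over their full alignment, mt-Co2 and Gm28661 had 0 mismatches in 681 bases, while mt-Nd5 and Gm4076 were 90.4% identical over 965 bases. The copy Gm28661 itself had a mean of 16.0 CPM, close to the 14.2 CPM of mt-Co2. Because of this, results on the mitochondrial genome lean on the 5 genes with under 10% shared words: mt-Nd1, mt-Nd2, mt-Nd5, mt-Nd6 and mt-Cytb. The nuclear members were less affected, since 40 of 83 shared no word with another gene. The highest share among the others was 38.3% (Atp5g2).

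Averaged over the pubertal injection, prenatal LPS went with higher RNA levels of many nuclear subunits and lower levels of mitochondrial ones. By the quasi-likelihood test of edgeR, at a Benjamini-Hochberg adjusted p under 0.05, 19 of the 94 members rose and 2 fell, against 4.9% and 2.92% of all 18875 tested genes. All 19 that rose are nuclear, and both that fell are mitochondrial. By complex, 9 of 38 nuclear members of complex I rose, 0 of 4 of complex II, 4 of 9 of complex III, 4 of 15 of complex IV and 2 of 17 of complex V. The log2 fold change was above 0 for 79 of 83 nuclear members, with a median of 0.12, and below 0 for all 11 mitochondrial members, with a median of -0.11. The median of the 5 mitochondrial genes with few shared words was -0.09. Over all tested genes the median was -0.01 and 48.3% were above 0. Median log2 fold changes were 0.13 for nuclear complex I, 0.04 for complex II, 0.11 for complex III, 0.15 for complex IV and 0.11 for complex V. The differences between complexes and between genomes were not tested. In whole tissue, fewer cells of a type and less RNA per cell cannot be told apart.

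The count depended on which libraries and settings were used. The 21 calls, with 7.82% of all genes called in either direction, became 13 without LPS-LPS replicate 3 (3.85% of all genes) and 10 with a correction for GC content and length (3.34% of all genes). Within the libraries at or above 1 CPM of Gabra6 the nuclear median was 0.11, and within those below it 0.14. In the former, replicate 4 is the only saline-saline library, and in the latter replicate 2 is the only LPS-LPS library. With the replicate number as a block, which pairs the libraries in both underlying comparisons, 32 were called (13.2% of all genes).

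**Figure D2:**
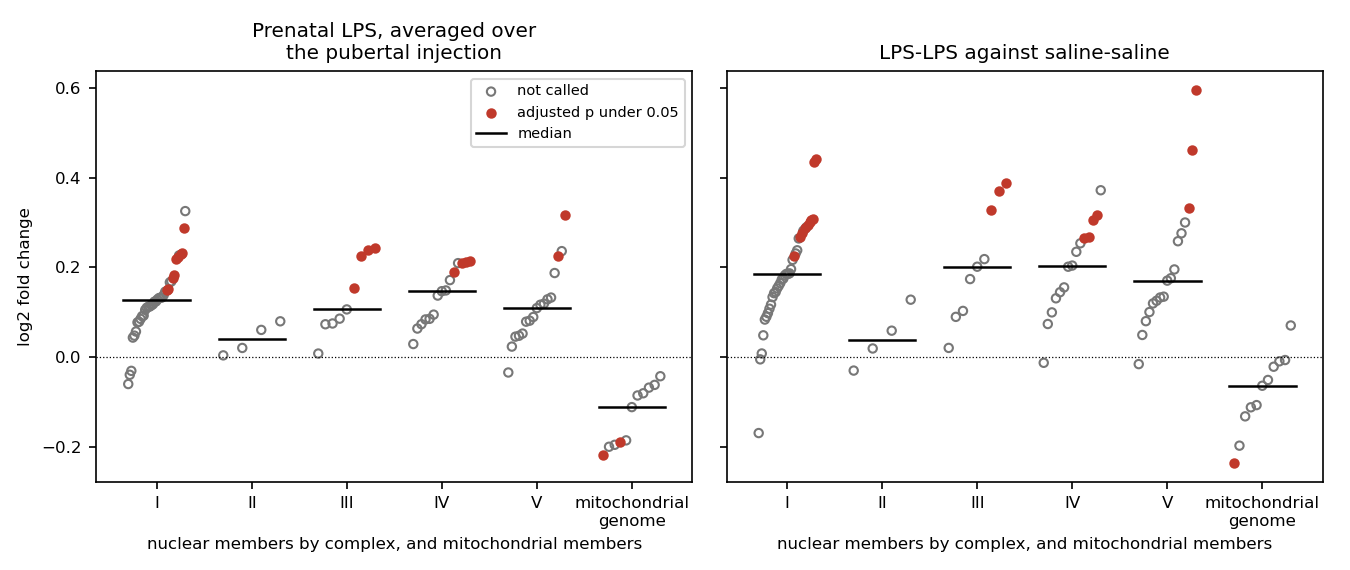
Log2 fold change of each member after prenatal LPS averaged over the pubertal injection (left) and in LPS-LPS against saline-saline (right), for nuclear members by complex and for the 11 mitochondrial members. Filled points passed an adjusted p of 0.05, bars are medians, and the medians of complexes I, III, IV and V lie at 0.11 to 0.15 on the left and 0.17 to 0.20 on the right, with complex II at 0.04 in both.

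Atp5e, the epsilon subunit in the rotating stalk of complex V (ENSMUSG00000016252, chr2:174461072-174464105, GRCm38), had the smallest p of all members. It stood at 97.3, 86.0, 92.1 and 87.5 CPM in saline-saline, 111, 99.2, 107 and 117 in LPS-saline, 82.8, 93.0, 101 and 109 in saline-LPS and 131, 118, 134 and 117 in LPS-LPS. All 4 LPS-LPS libraries were above every library of the other groups, and the LPS-saline range overlapped that of saline-LPS. The averaged log2 fold change was 0.32 (SE 0.05, adjusted p = 0.002), which is 1.24-fold. Atp5d, the delta subunit of the same stalk, lay from 207 to 248 CPM with a median of 223 in the 8 prenatal LPS libraries and from 167 to 215 CPM with a median of 192 in the 8 prenatal saline libraries. Its log2 fold change was 0.23 (SE 0.04, adjusted p = 0.005), and 7 of 8 prenatal LPS libraries were above the highest prenatal saline library.

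In complex I, both core subunits of the peripheral arm and accessory subunits were among the risers. Ndufs7, a core subunit that carries the last iron-sulfur cluster before ubiquinone, lay from 124 to 145 CPM with a median of 132 after prenatal LPS and from 100.4 to 124 CPM with a median of 114 after prenatal saline. It rose by 0.23 on the log2 scale (SE 0.04, adjusted p = 0.004), with 7 of 8 libraries above the highest prenatal saline library. Ndufa13, an accessory subunit also known as GRIM-19, lay from 126 to 145 CPM with a median of 129 after prenatal LPS and from 105 to 125 CPM with a median of 112 after prenatal saline, so the groups did not overlap. Its log2 fold change was 0.22 (SE 0.04, adjusted p = 0.004). Ndufa2, a small accessory subunit, had 57.2, 48.1, 53.5 and 50.7 CPM in saline-saline and 69.7, 70.9, 75.8 and 68.1 CPM in LPS-LPS, with LPS-saline at 65.2, 56.6, 61.7 and 63.2 and saline-LPS at 44.4, 59.1, 60.4 and 61.0. Every LPS-LPS library was above every other library, and saline-LPS replicate 1 was the lowest of all 16. Ndufa2 rose by 0.29 (SE 0.06, adjusted p = 0.006). By role, 2 of 7 nuclear core subunits (Ndufs7 and Ndufs8) and 7 of 29 accessory subunits of complex I were called, with Ndufa4 and Ndufa4l2 placed in neither class. Exons of Ndufa13, Ndufa2 and Atp5d overlap those of a gene on the other strand. So do those of several members named below, among them Cox5a, Cox4i1, Ndufb11 and mt-Nd5. Reads from such overlaps can be told apart only where the counting used strand, which is not given in the sources used here.

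In complex III the called genes were 3 small subunits without a redox centre and cytochrome c1. Uqcrq had 152, 129, 147 and 139 CPM in saline-saline, 173, 157, 174 and 174 in LPS-saline, 132, 157, 166 and 170.0 in saline-LPS and 182, 181, 197 and 175 in LPS-LPS. The LPS-LPS libraries were again the highest 4, and saline-LPS spread over the ranges of both saline-saline and LPS-saline. Its log2 fold change was 0.24 (SE 0.05, adjusted p = 0.007). Uqcr11 and Uqcr10 rose by 0.22 and 0.24 (adjusted p = 0.016 and 0.020). Cyc1, the haem-bearing cytochrome c1, named here after its values were seen, rose by 0.15 (SE 0.04, adjusted p = 0.031).

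In complex IV the called genes were Cox6a1, Cox5b, Cox8a and Cox5a, all nuclear structural subunits that surround the mitochondrial catalytic core. Cox6a1 had 468, 453, 502 and 449.9 CPM in saline-saline, 524, 494, 541 and 549 in LPS-saline, 448, 486, 519 and 511 in saline-LPS and 562, 543, 644 and 584 in LPS-LPS. Of the 8 prenatal LPS libraries, 7 were above the highest prenatal saline library. It rose by 0.21 (SE 0.04, adjusted p = 0.008). Cox5b rose by 0.21 (SE 0.05, adjusted p = 0.017), from 179 ± 15.5 CPM after prenatal saline to 208 ± 12.8 CPM after prenatal LPS (SD, n = 8 each). Cox8a and Cox5a rose by 0.19 and 0.21 (adjusted p = 0.038 and 0.044), and these calls were lost in 9 and 13 of the 16 fits that left out 1 library each. Leaving out each of the 16 libraries in turn ended no call of Atp5e, Atp5d, Ndufs7, Ndufa13, Ndufa2, Uqcrq, Cox6a1, mt-Nd5 or mt-Nd2.

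**Figure D3:**
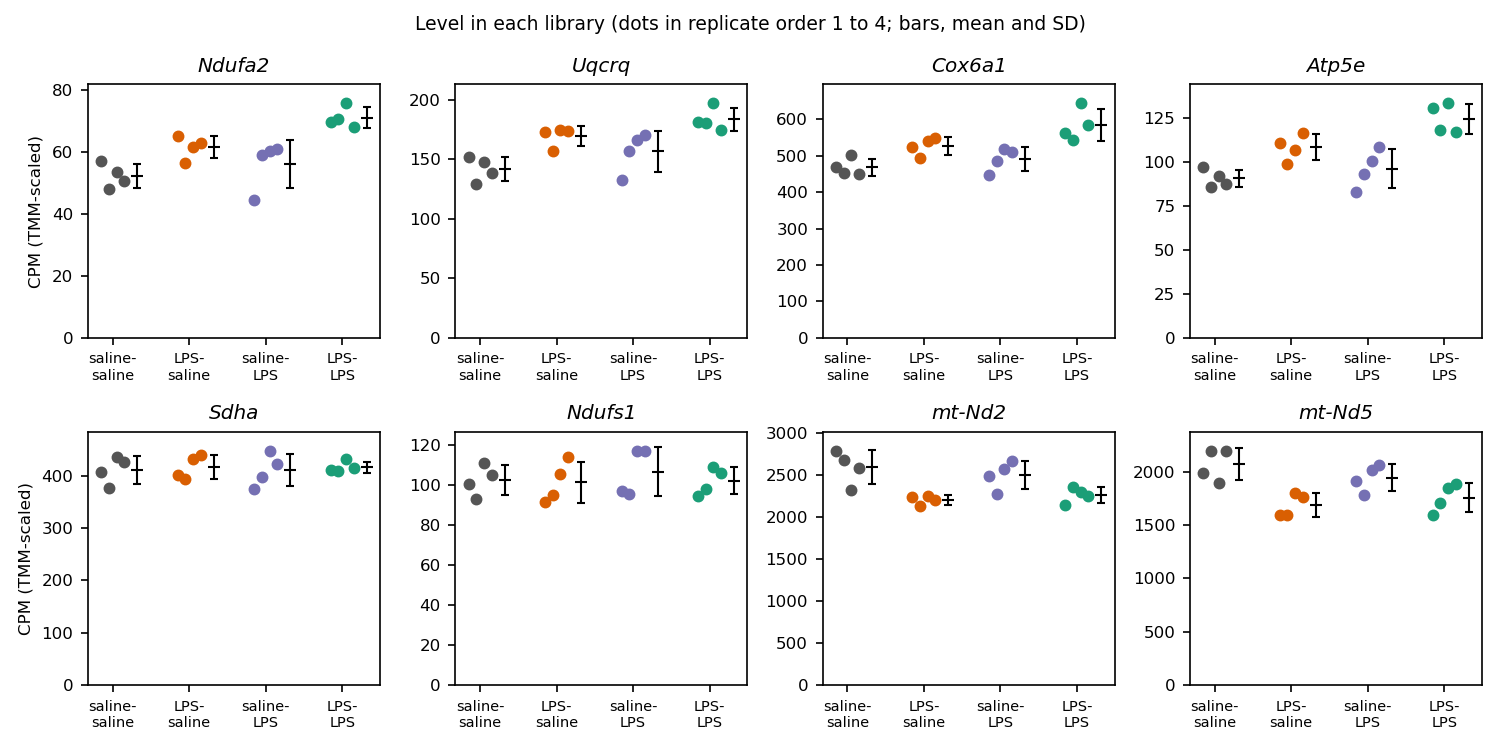
Level (CPM, scaled by TMM, axis from 0) of 8 members in each of the 16 libraries, by group, with the mean and SD (n = 4) beside the points. Ndufa2, Uqcrq, Cox6a1 and Atp5e are highest in LPS-LPS, with means of 71.2, 183, 583 and 125 CPM, while Sdha and Ndufs1 overlap in all groups and mt-Nd2 and mt-Nd5 are lower after prenatal LPS.

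Complex II and the catalytic head of complex V had no called gene. Sdha, which oxidises succinate, had 411 ± 26.9 CPM after prenatal saline and 417 ± 16.4 CPM after prenatal LPS (SD, n = 8 each). Its log2 fold change was 0.02 (SE 0.04). The iron-sulfur subunit Sdhb and the membrane anchors Sdhc and Sdhd had log2 fold changes of 0.06, 0.00 and 0.08 (SE 0.04, 0.05 and 0.05). The catalytic complex V subunits Atp5a1 and Atp5b had 0.08 and 0.05 (SE 0.04 and 0.04, adjusted p = 0.271 and 0.471). The 4 nuclear members below 0 were Ndufb2 at -0.06, the large iron-sulfur core subunit Ndufs1 at -0.04, Atp5s at -0.03 and the acyl carrier protein Ndufab1 at -0.03. None of these 4 passed the test (adjusted p = 0.668, 0.743, 0.809 and 0.831), and they were singled out after their values were seen.

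On the mitochondrial genome, mt-Nd5 and mt-Nd2, proton-pumping subunits of the membrane arm of complex I, fell after prenatal LPS. mt-Nd5 (chrM:11742-13565) had 1989, 2197, 1895 and 2197 CPM in saline-saline, 1592, 1595, 1801 and 1759 in LPS-saline, 1910.1, 1778, 2013 and 2064 in saline-LPS and 1591, 1703, 1843 and 1887 in LPS-LPS. All 4 saline-saline libraries were above the highest LPS-LPS library, and saline-LPS overlapped both groups with prenatal LPS. Its averaged log2 fold change was -0.22 (SE 0.05, adjusted p = 0.011), and all 8 prenatal LPS libraries were below the prenatal saline median. mt-Nd2 (chrM:3914-4951) had 2791, 2673, 2321 and 2586 CPM in saline-saline, 2239, 2125, 2246 and 2197 in LPS-saline, 2482, 2276, 2566 and 2665 in saline-LPS and 2140.2, 2356, 2298 and 2246 in LPS-LPS. It fell likewise, with -0.19 (SE 0.04, adjusted p = 0.012) and 8 of 8 libraries below the prenatal saline median.

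The other 9 mitochondrial members did not pass the test. mt-Cytb, which carries the b haems of complex III, was from 4647 to 5211 CPM with a median of 4846 after prenatal LPS and from 4825 to 5571 CPM with a median of 5254 after prenatal saline, with -0.09 (SE 0.04, adjusted p = 0.206). mt-Nd1 had -0.08 (SE 0.05) and mt-Nd6, which lies on the opposite strand and overlaps mt-Nd5, -0.04 (SE 0.09). mt-Co1, the catalytic subunit of complex IV with 51.1% shared words, had -0.11 (SE 0.04, adjusted p = 0.098), and 8 of 8 prenatal LPS libraries were below the prenatal saline median. The genes with near-complete nuclear copies, mt-Co2, mt-Co3, mt-Nd3 and mt-Atp6, had -0.20, -0.20, -0.19 and -0.06, and none passed (adjusted p = 0.103, 0.083, 0.383 and 0.679). For mt-Nd4 it was -0.07 (SE 0.05). Mitochondrial protein genes held 2.56 to 2.88% of the counts in prenatal LPS libraries and 2.72 to 3.19% in prenatal saline libraries.

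Per library, nuclear complexes I, III, IV and V had their highest and lowest values in the same 2 libraries. As a summary without a test, the log2 levels of the members of a complex were centred over the 16 libraries and averaged. For nuclear complex I this mean was -0.03, -0.14, -0.07 and -0.08 in saline-saline, 0.03, -0.08, 0.05 and 0.08 in LPS-saline, -0.22, -0.10, 0.07 and 0.05 in saline-LPS and 0.13, 0.10, 0.15 and 0.06 in LPS-LPS. LPS-LPS lay above saline-saline without overlap, and saline-LPS was the most spread group. Saline-LPS replicate 1 was the lowest of all 16 libraries for complexes I, III, IV and V. The mean over the 8 prenatal LPS libraries exceeded that over the 8 prenatal saline libraries by 0.13, 0.04, 0.14, 0.14 and 0.12 for complexes I to V. For complex II the values were -0.04, -0.16, 0.03 and -0.01 in saline-saline and -0.06, -0.07, 0.10 and 0.01 in LPS-LPS, which overlapped. For the 5 mitochondrial genes with few shared words they were 0.13, 0.09, -0.02 and 0.13 in saline-saline, -0.14, -0.19, -0.08 and -0.07 in LPS-saline, -0.09, -0.04, 0.10 and 0.18 in saline-LPS and -0.11, 0.01, 0.05 and 0.03 in LPS-LPS. All 4 LPS-saline libraries were below all 4 saline-saline libraries, while saline-LPS and LPS-LPS overlapped.

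**Figure D4:**
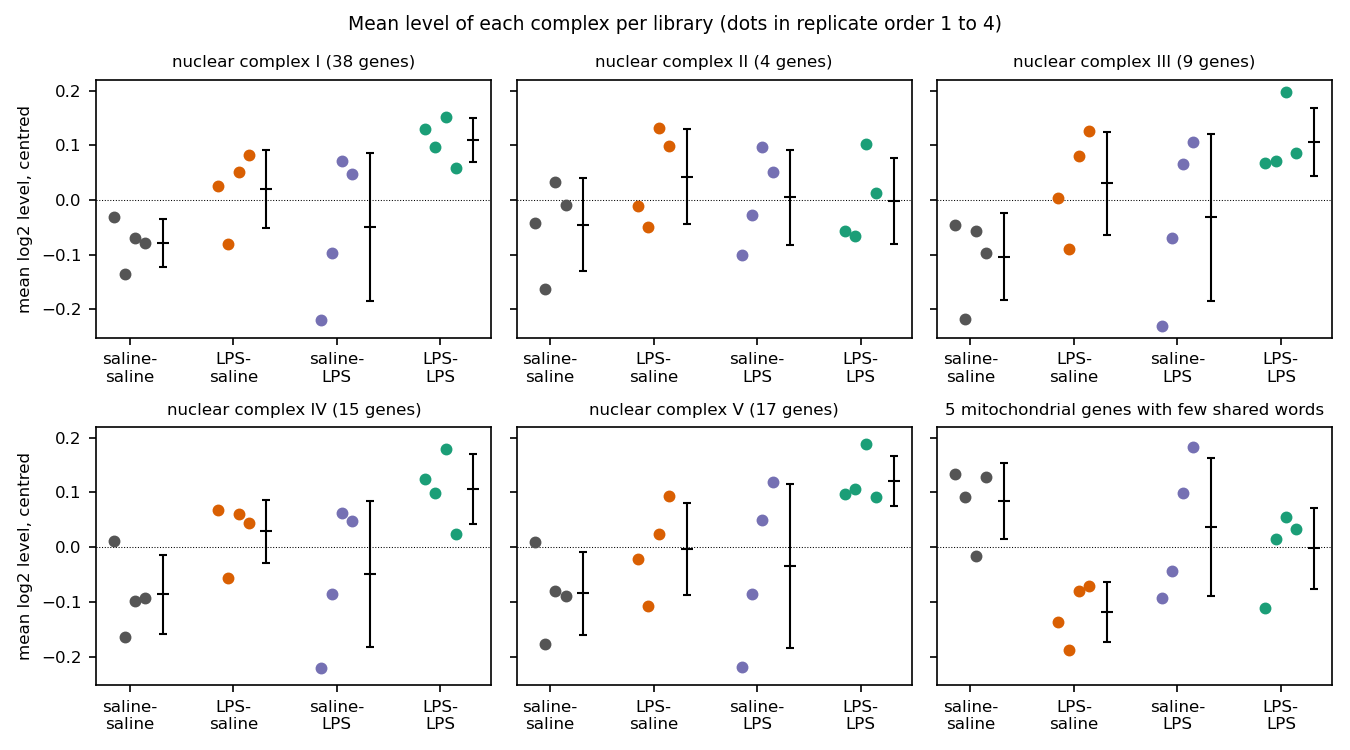
Mean centred log2 level of the nuclear members of each complex and of 5 mitochondrial genes in each library (vertical axis, log2 units), by group, with mean and SD (n = 4) beside the points. Nuclear complexes I, III, IV and V have their highest group mean in LPS-LPS, at 0.11 to 0.12, and the mitochondrial genes their lowest in LPS-saline, at -0.12.

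Before a pubertal saline injection, the comparison of LPS-saline with saline-saline called no member, with 0.148% and 0.0318% of all tested genes called higher and lower by edgeR. At an unadjusted p under 0.05 there were 32 of 94 members, against 2497 of 18875 genes, and DESeq2 called 7 (3.04% of the genes it tested). With the replicate number as a block, 8 members were called (2.17% of all genes): Atp5d, Cyc1, Ndufa13, Ndufb7, Ndufs7 and Uqcrq were higher, and mt-Nd2 and mt-Nd5 lower. The smallest p belonged to mt-Nd5 at -0.29 (SE 0.07, adjusted p = 0.066), from 2069 ± 152 to 1687 ± 109 CPM (SD, n = 4 each). Ndufa13 and Atp5d followed at 0.24 and 0.25 (SE 0.06 and 0.06, adjusted p = 0.070 and 0.076). Of the nuclear members 72 of 83 were above 0, with a median of 0.11, and all 11 mitochondrial members were below 0, with a median of -0.18. The median of the 5 mitochondrial genes with few shared words was also -0.18. Without saline-LPS replicate 1, a library of neither group that enters only through the shared model, 8 members were called, with 2.04% of all genes against 0.180% in the fit with all libraries.

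Before a pubertal LPS injection, the comparison of LPS-LPS with saline-LPS called Atp5e alone, against 0.562% and 0.0477% of all tested genes called higher and lower. Atp5e rose from 96.3 ± 11 to 125 ± 8.50 CPM (SD, n = 4 each), a log2 fold change of 0.38 (SE 0.07, adjusted p = 0.022). Nuclear members were above 0 in 76 of 83 cases with a median of 0.12, and 8 of 11 mitochondrial members were below 0 with a median of -0.09. Among the 5 mitochondrial genes with few shared words, 3 were below 0 and 2 above, with a median of -0.04. Atp5k and Ndufb8 had larger log2 fold changes, 0.53 and 0.40, that did not pass (adjusted p = 0.141 and 0.101). With the replicate block 6 members were called (1.73% of all genes): Atp5e, Cox6a1, Ndufa13, Ndufa2, Ndufb8 and Ndufs7. The call of Atp5e was lost without LPS-LPS replicate 1 or 3, or saline-LPS replicate 1 or 2, and without saline-LPS replicate 4 the count was 3. Within libraries below 1 CPM of Gabra6, where replicate 2 is the only LPS-LPS library, the mitochondrial median was 0.06.

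Between the extremes, LPS-LPS against saline-saline, 20 members rose and 1 fell, against 4.27% and 2.29% of all tested genes. The risers were again nuclear, 10 of complex I, 3 of complex III, 4 of complex IV and 3 of complex V, and the faller was mt-Nd5. This comparison shares libraries with the pair above and with the averaged one, so its values are set beside them as a description. Atp5e went from 90.7 ± 5.09 to 125 ± 8.50 CPM (SD, n = 4 each; log2 0.46, SE 0.07, adjusted p = 0.003). Ndufa2 went from 52.4 ± 3.91 to 71.2 ± 3.33 CPM (log2 0.44, SE 0.08, adjusted p = 0.005). Atp5k, which encodes the membrane subunit e that helps complex V form dimers, had the largest log2 fold change of the called members. It had 40.9, 31.4, 30.4 and 35.1 CPM in saline-saline, 35.4, 27.6, 30.8 and 39.3 in LPS-saline, 25.5, 33.4, 39.2 and 46.5 in saline-LPS and 46.3, 55.3, 55.2 and 51.6 in LPS-LPS. Its LPS-LPS range overlapped the highest saline-LPS library, and its log2 fold change was 0.60 (SE 0.15, adjusted p = 0.031). Ndufb11, on the X chromosome, rose by 0.31 (SE 0.07, adjusted p = 0.020). This call was lost on leaving out LPS-LPS replicate 3 (where Xist was present). So were most of the others, since 6 of the 21 calls stayed in that fit. The part of sex was not tested. Cox4i1 rose by 0.27 (SE 0.08, adjusted p = 0.047). mt-Nd5 fell by 0.24 (SE 0.07, adjusted p = 0.045), from 2069 ± 152 to 1756 ± 135 CPM.

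The calls of Atp5k, Cox4i1 and mt-Nd5 in this comparison were lost in 6, 12 and 8 of the 16 fits that left out 1 library each. The count of 21, with 6.56% of all genes called in either direction, depended on single libraries too, and the share of all genes moved with it. It was 6 without LPS-LPS replicate 3 (1.55% of all genes), 7 and 9 without saline-saline replicates 4 and 2 (1.91% and 2.03%), 10 without LPS-LPS replicate 1 (2.96%) and 38 without saline-LPS replicate 1 (10.3%). It was 8 with the GC and length correction (2.73%). Within libraries below 1 CPM of Gabra6, where replicate 2 is the only LPS-LPS library, the mitochondrial median was 0.06, against -0.06 over all libraries.

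For the pubertal injection no member was called by edgeR in any of the 4 comparisons that address it, and 0% of all tested genes were called. In saline-LPS against saline-saline, 2 members and 535 of all 18875 genes had an unadjusted p under 0.05, and DESeq2 called 0. The 3 members with the smallest p were Ndufb11 at 0.18 (SE 0.08), Atp5d at 0.13 (SE 0.06) and Sdhd at 0.14 (SE 0.07), each with an adjusted p of 1.000. In LPS-LPS against LPS-saline, 17 members and 756 of all 18875 genes had an unadjusted p under 0.05, and DESeq2 called 1, Atp5k (0.0477% of its genes). There Atp5k, Atp5mpl and Cox7c had 0.65, 0.39 and 0.35 (SE 0.15, 0.11 and 0.10, adjusted p = 0.747, 0.817 and 0.817). Averaged over the prenatal injection, 17 members and 947 of all genes had an unadjusted p under 0.05, and DESeq2 called 0. Ndufb11, Atp5k and Ndufb3 led with 0.17, 0.36 and 0.14 (SE 0.05, 0.11 and 0.05), each with an adjusted p of 0.908. The interaction, which asks whether the prenatal effect differs between the pubertal injections, gave 0 members by DESeq2 and 7 with an unadjusted p under 0.05, against 402 of all genes. Its smallest p-values were those of Ndufa3, Atp5k and Cox7c, with 0.36, 0.58 and 0.35 (SE 0.14, 0.22 and 0.14) and an adjusted p of 1.000 each.

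Several subunits exist as paralogs that tissues use to different degrees, and in these brains the widely expressed ones had the higher levels. Per kilobase, Cox4i1 stood at 221 CPM and the lung-enriched Cox4i2 at 1.83. Cox6a1 stood at 737 and the muscle isoform Cox6a2 at 10.5, Cox6b1 at 193 and the testis isoform Cox6b2 at 2.97. Cox7a2 and Cox7a2l stood at 119 and 74.8 and the muscle isoform Cox7a1 at 2.95, and Ndufa4 at 137 against 1.76 for Ndufa4l2. Cox8a stood at 542 and the muscle isoform Cox8b at 1.29. Summed markers of skeletal and heart muscle (8 genes) were at 15.8 to 24.9 CPM in saline-saline and 16.1 to 18.2 CPM in LPS-LPS, with Actc1 at 0 in some libraries. After prenatal LPS the minor isoforms had log2 fold changes of 0.14 for Cox4i2, 0.15 for Cox6a2, 0.21 for Cox6b2, 0.09 for Cox7a1 and 0.33 for Ndufa4l2. Their standard errors were 0.12 to 0.17, and none passed the test. The membrane ring of complex V is built from products of Atp5g1, Atp5g2 and Atp5g3, which encode the same mature protein. These genes had 166, 54.6 and 197 CPM and log2 fold changes of 0.13, 0.12 and 0.11 (adjusted p = 0.068, 0.055 and 0.178).

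Gene length moved with these results, and the libraries also differed in their trend with GC content. Nuclear members are short, with a median of 1587 exonic bases (419 to 8086) against 4383.5 for all genes at or above 1 CPM, and the 5 mitochondrial genes with few shared words span 519 to 1824 bases. The Spearman correlation between exonic length and a library's deviation from the mean of all libraries was 0.153 to 0.327 in saline-saline and -0.050 to 0.256 in saline-LPS. It was -0.252 to -0.045 in LPS-saline and -0.368 to -0.184 in LPS-LPS. With GC content in place of length, the correlation was -0.432 to 0.060 in saline-saline and -0.547 to 0.285 in saline-LPS. In LPS-saline it was -0.273 to 0.437 and in LPS-LPS 0.009 to 0.413. Across the 83 nuclear members the averaged prenatal log2 fold change correlated with exonic length at -0.432, and at -0.365 after a correction for GC content and length. With the length of the coding sequence the correlation was -0.276, and it was stronger, -0.407, after the same correction. The members share all 16 libraries, so no p is given. With that correction 9 members rose and 1 fell, the nuclear median was 0.09 and 78 of 83 stayed above 0. Atp5e (0.29, SE 0.05, adjusted p = 0.001), Ndufa2 (0.28, 0.06, 0.013), Uqcrq (0.22, 0.04, 0.009) and mt-Nd5 (-0.23, 0.06, 0.024) passed with it. Ndufs7, Ndufa13, Cox6a1 and mt-Nd2 did not, at 0.12, 0.10, 0.09 and -0.20 (adjusted p = 0.125, 0.220, 0.364 and 0.196). The correction took length and GC content together. Beyond it, the part of either in these results was not tested.

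**Figure D5:**
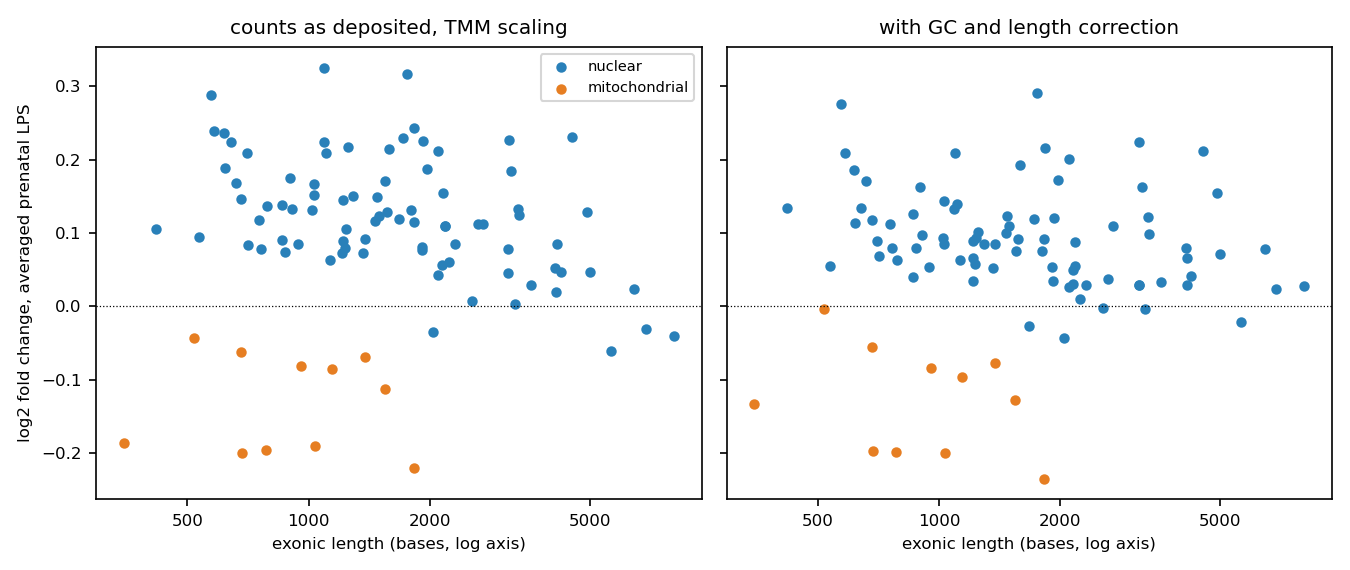
Log2 fold change after prenatal LPS, averaged over the pubertal injection, of each of the 94 members against its exonic length (bases, log axis), from the deposited counts (left) and after correcting for length and GC content (right). Nuclear members (blue) lie mostly above 0 and mitochondrial members (orange) below it in both panels.

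The genes that build or serve the chain are set here beside the 4.9% of all tested genes called higher and 2.92% called lower after prenatal LPS. Of 47 tested assembly factors, which insert cofactors and subunits, 5 rose after prenatal LPS and 0 fell: Ndufaf3, Coa3, Uqcc2, Cox14 and Surf1. Ndufaf3 went from 28.1 ± 1.75 to 33.2 ± 1.78 CPM (SD, n = 8 each; log2 0.24, adjusted p = 0.004). Coa3 and Uqcc2 rose by 0.17 and 0.20 (adjusted p = 0.019 and 0.026). The list's median log2 fold change was 0.05. Of 77 mitochondrial ribosomal protein genes, needed to translate the 13 mitochondrial products, 16 rose and 0 fell, with a median of 0.13. Mrps24, Mrps34 and Mrps12 led with 0.25, 0.32 and 0.23 (adjusted p = 0.005, 0.005 and 0.007). Of 22 genes of mitochondrial DNA maintenance and transcription, Hsd17b10, a subunit of mitochondrial RNase P, rose by 0.17 (adjusted p = 0.042). Of 12 regulators of mitochondrial biogenesis, Ppargc1a, the coactivator PGC-1alpha, fell from 44.0 ± 1.69 to 39.7 ± 1.90 CPM (SD, n = 8 each; log2 -0.15, SE 0.04, adjusted p = 0.030). Of 19 genes of the tricarboxylic acid cycle 1 rose, Mdh2 by 0.16 (adjusted p = 0.041), and of 10 genes of cytochrome c, carriers and channels 0 were called. For the maintenance and the tricarboxylic acid cycle genes, 1 call each is near the share over all genes. In a list of 12 regulators, 1 call cannot be told apart from the share of all genes called lower. In LPS-LPS against saline-saline 4.27% of all tested genes were called higher and 2.29% lower. There the risers were 5 of 47 assembly factors, 12 of 77 ribosomal proteins and 2 of 22 maintenance genes, and 0 genes of the other 3 lists were called. The lists were not tested as sets.

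Markers of brain cell types were present in every group, and some moved with the prenatal injection. Summed over 6 astrocyte markers the level was 3032 to 3699 CPM in saline-saline, 2912 to 3237 in LPS-saline, 3213 to 3810.4 in saline-LPS and 2980.5 to 3220.4 in LPS-LPS, and Gfap rose while Slc1a2 and Gjb6 fell. For 6 oligodendrocyte markers the sums were 10795 to 13491, 9983 to 12823, 10920.5 to 14309 and 11355 to 13385 CPM in the same order, and Cnp fell. For 6 neuronal markers they were 4620.2 to 5222, 5012 to 5286, 4487 to 5276 and 4924 to 5293 CPM, and Slc17a7 rose. For 6 microglial markers they were 147 to 215, 164 to 200.1, 151 to 225 and 175 to 199.8 CPM, and Aif1 rose. No marker of endothelium, choroid plexus, cerebellar granule cells, pituitary, muscle, brown fat, pericytes or blood was called. The part of cell composition in the subunit levels was not tested.

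Promoters of nuclear members carry motifs of factors known for respiratory genes. Of 83 nuclear members, 65 matched a RefSeq promoter (GRCm38.p6, 250 bases before to 50 after the start). Within these windows, on both strands, the NRF1 motif GCGCATGCG was found in 8 of 65 members (12.3%) and in 1.95% of all 27025 genes with a promoter. The ETS motif CCGGAAG, bound by GABPA (NRF2) among others, was found in 16 of 65 (24.6%) and in 9.93% of all. The YY1 motif AAGATGGCG was found in 7 of 65 (10.8%) and in 1.64% of all, and no member's ETS match overlapped a YY1 match. Of the 15 matched members that rose after prenatal LPS, 6 had the ETS motif, and of the 50 that were not called, 10, while the NRF1 motif was in 3 and 5 and the YY1 motif in 2 and 5. These matches are a description of the letters. The promoters below are examples, and all 3 risers shown carry a match, which not all of the 15 matched risers do. Promoters of 3 risers and of Sdha and Sdhb, which were not called, are shown with each match in capitals: an ETS match in Atp5e (chr2:174464052-174464351, minus strand), a YY1 match in Ndufs7 (chr10:80249199-80249498, plus strand), an ETS match and an NRF1 match on both strands in Cox6a1 (chr5:115348909-115349208, minus strand), none in Sdha (chr13:74350191-74350490, minus strand), and an ETS match in Sdhb (chr4:140961021-140961320, plus strand).
Atp5e: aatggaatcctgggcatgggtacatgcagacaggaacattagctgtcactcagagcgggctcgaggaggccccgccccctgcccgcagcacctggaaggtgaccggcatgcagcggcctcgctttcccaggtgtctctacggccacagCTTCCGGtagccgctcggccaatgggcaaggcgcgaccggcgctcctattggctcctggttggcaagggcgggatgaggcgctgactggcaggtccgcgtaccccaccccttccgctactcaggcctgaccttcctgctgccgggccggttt
Ndufs7: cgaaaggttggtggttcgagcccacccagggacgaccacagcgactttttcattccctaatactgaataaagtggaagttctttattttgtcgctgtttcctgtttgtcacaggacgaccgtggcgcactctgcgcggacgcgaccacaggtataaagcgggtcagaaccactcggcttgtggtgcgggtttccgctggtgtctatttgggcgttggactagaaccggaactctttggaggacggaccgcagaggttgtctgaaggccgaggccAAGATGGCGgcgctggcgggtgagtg
Cox6a1: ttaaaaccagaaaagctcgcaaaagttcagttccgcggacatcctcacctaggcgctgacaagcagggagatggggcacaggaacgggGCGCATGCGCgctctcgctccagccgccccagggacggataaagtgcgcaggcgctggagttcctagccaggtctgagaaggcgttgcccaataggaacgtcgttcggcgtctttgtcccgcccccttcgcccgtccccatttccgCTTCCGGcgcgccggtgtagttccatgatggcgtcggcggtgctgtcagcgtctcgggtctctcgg
Sdha: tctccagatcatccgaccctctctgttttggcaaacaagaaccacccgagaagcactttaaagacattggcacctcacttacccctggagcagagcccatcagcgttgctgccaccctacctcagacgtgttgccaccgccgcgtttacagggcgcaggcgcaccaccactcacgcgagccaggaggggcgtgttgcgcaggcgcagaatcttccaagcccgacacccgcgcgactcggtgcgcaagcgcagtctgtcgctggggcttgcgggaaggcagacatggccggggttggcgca
Sdhb: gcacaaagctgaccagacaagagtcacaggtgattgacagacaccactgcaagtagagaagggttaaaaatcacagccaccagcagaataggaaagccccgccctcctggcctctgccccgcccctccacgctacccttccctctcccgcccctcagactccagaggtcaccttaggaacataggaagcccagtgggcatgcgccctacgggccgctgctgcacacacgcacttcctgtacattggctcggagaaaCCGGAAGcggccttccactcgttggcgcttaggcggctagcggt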

How the data were processed

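The authors sequenced whole-brain RNA from 16 mice in 4 groups of 4 and deposited whole-number read counts per Ensembl gene, 1 table per library. Per the submitters' processing notes, STAR 2.5.2b, HTSeq 0.11.2 and GRCm38 were used. Not given in the sources used here are the strand setting, the annotation release and read filters. The tables share 49671 genes, and their 5 summary lines entered neither library sizes nor tests. Per library, 8.37 to 11.0% of counts had no gene, 5.11 to 5.48% were ambiguous and 3.18 to 3.90% were not uniquely aligned. Symbols came from GENCODE M21 (GRCm38), in which 49412 identifiers matched and 259 did not.

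Counts were tested with edgeR 4.0.16 in R 4.3.3: filterByExpr left 18875 genes, TMM scaled the libraries, and a robust quasi-likelihood model held 4 groups over all libraries. Adjusted p-values are two-sided Benjamini-Hochberg values over all tested genes, with a threshold of 0.05, for 8 comparisons. The script was tested on simulated counts. CPM values are TMM-scaled, and log2 levels add 0.5 CPM. The members and lists were chosen with earlier results of these data known. Named are the 13 mitochondrial genes, the 3 highest nuclear members per complex, up to 3 called members per complex and comparison by smallest p, paralog sets, members beside the 1 CPM limit, up to 3 called genes per list and, where nothing was called, the 3 smallest p-values. Ndufs8, Ndufb7, Ndufb8, Cyc1, Cox14 and Surf1 were named after their values were seen.

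Same-numbered replicates were taken as paired where every pair's residual correlation was over 0.1, over 11947 genes. Correlations were 0.162 to 0.693 for LPS-saline with saline-saline, 0.366 to 0.468 for LPS-LPS with saline-LPS and 0.204 to 0.480 for LPS-LPS with LPS-saline, and down to -0.006 and -0.013 for the other pairs. Alternatives were DESeq2 1.42.0, other scalings, no filter, leaving out the mitochondrial chromosome, a GC and length correction, the replicate block, the Gabra6 split and leaving out each library. No molecular identifiers are named for these reads, so read floors cover counting error only.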

Additional observations from a re-analysis of the deposited data

Results flagged for a closer look

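Among 260 groups of 4 libraries examined, the highest or lowest library stood apart from the other 3 in 22 (the gap to its neighbour over the group's range was above Dixon's critical value for 4 samples), and chance flags about 5% of groups. Several of these fell in the same libraries. In the library labelled LPS-LPS replicate 3, which also had Xist, the mean centred log2 level of complex III was 0.20 against 0.07 to 0.09 in the others, and that of complex V was 0.19 against 0.09 to 0.11. The same library had Atp5d at 248 CPM (others up to 225), Cox7a2l at 134 (up to 114) and Ndufa13 at 145 (up to 130.0). Saline-LPS replicate 1 was low for Cox8a at 259 CPM (others from 334), Ndufa2 at 44.4 (from 59.1) and Atp5g1 at 147 (from 166). LPS-saline replicate 4 was low for mt-Cytb at 4647 CPM (others from 4833) and Cox4i2 at 1.00 (from 1.69), and high for mt-Nd4l at 0.540 (up to 0.169).

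The remaining cases were single genes. LPS-LPS replicate 4 was low for Atp5g1 at 167 CPM (others from 179), and LPS-saline replicate 2 was low for Uqcrq at 157 (from 173). Atp5g2 was high in saline-saline replicate 2 at 55.8 CPM (others up to 50.8) and in saline-LPS replicate 4 at 55.0 (up to 52.1). In the latter library mt-Nd3 was high at 2.85 CPM (others up to 2.33). In saline-saline, Ndufa4 was low in replicate 2 at 153 CPM (others from 184), and replicate 1 was high for Cox6a2 at 8.89 (up to 6.21) and Ndufb3 at 56.1 (up to 53.4). A single read set apart Cox8c in LPS-LPS replicate 1 at 0.0317 CPM and mt-Atp8 in saline-saline replicate 4 at 0.0321 and LPS-saline replicate 2 at 0.0259, the others being at 0.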

How the results depend on the processing

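Of 834 values of 31 called results (a gene in a comparison, so that a gene can count more than once) under the alternatives, 659 stayed past the threshold, 175 kept the direction but missed it and 0 changed direction. Most of these values come from fits that left out 1 library. Such fits share all other libraries with the main fit, so their likeness to it is partly built in. With the GC and length correction 11 of the 31 results stayed past the threshold and 20 missed it. Medians without a test did turn: within libraries below 1 CPM of Gabra6 the mitochondrial median was 0.06 in LPS-LPS against saline-LPS and 0.06 in LPS-LPS against saline-saline (-0.09 and -0.06 over all libraries). There the nuclear median of saline-LPS against saline-saline was -0.07 (0.05 over all libraries), and that of the interaction was 0.14, and -0.13 within the other libraries. Member counts moved, and the share of tested genes called, in brackets, moved too. Each share is over the genes tested in its own fit, so the shares do not have 1 base. The main fit tested 18875 genes and the fit without the filter 34968. For DESeq2 the base was 13750 to 18872 genes, those given an adjusted p. For prenatal LPS averaged, 21 (7.82%) became 32 with DESeq2 (16.6%), 32 with the replicate block (13.2%) and 10 with the GC and length correction (3.34%). On leaving out a library it was 13 to 27 (3.85% and 7.87%). For LPS-LPS against saline-saline, 21 (6.56%) became 35 with DESeq2 (14.6%), 35 with the replicate block (11.6%) and 8 with the correction (2.73%). On leaving out a library it was 6 to 38 (1.55% and 10.3%). For LPS-LPS against saline-LPS, 1 (0.609%) became 10 with DESeq2 (2.77%), 5 with the Gabra6 split as a term (1.81%) and 5 without the filter (0.509%). It was 6 with the replicate block (1.73%), 2 with block and correction (0.519%) and 0 to 3 on leaving out a library (0.658% at 3, without saline-LPS replicate 4). For LPS-saline against saline-saline, 0 (0.180%) became 7 with DESeq2 (3.04%), 5 with the Gabra6 term (1.80%) and 1 without the filter (0.363%). It was 8 with the replicate block (2.17%), 1 with block and correction (0.694%) and 0 to 8 on leaving out a library (2.04% at 8, without saline-LPS replicate 1). DESeq2 called 1 member in LPS-LPS against LPS-saline (0.0477%). The replicate block changed no call in the 4 comparisons of the pubertal injection, and for 9 of 16 libraries the best correlate carried the same number. Only 1 LPS-LPS library (replicate 2) is below 1 CPM of Gabra6, and only 1 saline-saline library (replicate 4) is at or above it. The fits within these sets assumed that such a library varies like the other groups, so no separate counts of calls are given for them. They are part of the 834 values above. Apart from fewer samples where libraries were left out, the cause of these changes was not tested. Genes near 1 CPM carry few reads, which limits their precision.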

Other observations

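The balance of the 2 genomes within a library, computed after the values above were seen, separated the prenatal groups without overlap. The mean centred log2 level of the 83 nuclear members minus that of the 5 mitochondrial genes with few shared words was -0.15, -0.25, -0.06 and -0.21 in saline-saline and -0.12, -0.04, -0.03 and -0.11 in saline-LPS. It was 0.16, 0.11, 0.13 and 0.15 in LPS-saline and 0.22, 0.07, 0.11 and 0.03 in LPS-LPS. All 8 prenatal saline libraries were below 0 and all 8 prenatal LPS libraries above 0. With all 11 mitochondrial members in place of the 5, the prenatal saline libraries ran from -0.22 to -0.01 and the prenatal LPS libraries from 0.02 to 0.20. Neither part alone did so: the nuclear mean ran from -0.22 to 0.07 after prenatal saline and from -0.08 to 0.17 after prenatal LPS, and the mean of the 5 mitochondrial genes from -0.09 to 0.18 and from -0.19 to 0.05. No test was run on this difference, since the members were chosen with results known. Nuclear members had already been seen to rise and mitochondrial ones to fall in these libraries, so a split is partly built in. Other pairs of gene sets were not compared. Each library's correlation with exonic length also nearly split the groups, at -0.368 to -0.045 after prenatal LPS and -0.050 to 0.327 after prenatal saline. The balance was not recomputed after the GC and length correction, so the part of length in it was not tested.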
